A study of Mus musculus with 45 samples.

Results

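Transcript levels of 9 regulator of G protein signalling (RGS) genes were followed in germinal center (GC) B cells, T follicular helper (Tfh) cells and their non-GC and non-Tfh counterparts from immunized WT and S1PR4-/- mice. The members, Rgs1, Rgs2, Rgs3, Rgs10, Rgs13, Rgs14, Rgs16, Rgs18 and Rgs19, were chosen by gene symbol, and all 9 were found among the 55450 genes of the deposited table. RNA was sequenced from 45 sorted samples in 8 groups. Mice of the strain B6.129P2-S1pr4tm1Dgen/J, backcrossed to C57BL/6, were 8 to 12 weeks of age and of both sexes, and S1pr4+/+ littermates (WT) served as controls for S1pr4-/- animals (S1PR4-/-). Every mouse in all 8 groups had received 20 µL of an incomplete Freund's adjuvant emulsion with 50 µg ovalbumin and 5 µg lipopolysaccharide in the hind footpad, so no unimmunized group was analysed here. From the draining popliteal lymph nodes (dLN), GC B cells (B220+ GL7+ Fas+; 6 WT and 6 S1PR4-/- samples) and non-GC B cells (B220+ GL7- Fas-; 5 WT and 4 S1PR4-/- samples) were sorted on day 9. Tfh cells (TCRβ+ CD4+ PD1+ CXCR5+) and non-Tfh cells (TCRβ+ CD4+ PD1- CXCR5-) were sorted on day 6, with 6 WT and 6 S1PR4-/- samples each. The receptor was missing from every cell of the knockout animals, so an effect within the sorted cell and an effect of the host cannot be told apart. B and T cells were collected on different days, so lineage and day cannot be told apart either.

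RGS proteins act on heterotrimeric G proteins, the switches that carry signals from G protein-coupled receptors. They bind the GTP-loaded alpha subunit and speed its return to the GDP-bound, inactive state, and so shorten the signal of chemokine, sphingosine-1-phosphate and other receptors. In lymphoid tissue they are best known for limiting how strongly B and T cells migrate toward chemoattractants, and Rgs1, Rgs13 and Rgs16 have long been studied there.

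Of the 9 genes, 5 lie on mouse chromosome 1. Rgs2, Rgs13, Rgs1 and Rgs18 follow each other on the minus strand within 776.1 kb, with 134.5, 64.9 and 503.4 kb between neighbours, and Rgs21 is the single other protein-coding gene in that interval. Rgs16 is on the plus strand of the same chromosome, 8964.9 kb beyond Rgs18. The bases just upstream of the start are shown for 3 of them, Rgs13 and Rgs2, which were higher in GC B than in non-GC B cells, and Rgs16, which was higher in Tfh than in non-Tfh cells. RefSeq (GRCm38.p6) upstream sequences were matched for 6 of the 9 members and were missing for Rgs1, Rgs14 and Rgs18. Each stretch is the 250 bases before the start, written 5′ to 3′ on the gene's own strand. Capitals mark the letters TGACG, the core of a cyclic AMP response element, or its reverse complement.
Rgs13, chr1:144177373-144177622, minus strand: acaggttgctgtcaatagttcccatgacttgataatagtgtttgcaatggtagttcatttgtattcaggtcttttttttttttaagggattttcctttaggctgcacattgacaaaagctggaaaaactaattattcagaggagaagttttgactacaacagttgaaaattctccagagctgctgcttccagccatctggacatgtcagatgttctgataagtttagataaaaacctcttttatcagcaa
Rgs2, chr1:144004150-144004399, minus strand: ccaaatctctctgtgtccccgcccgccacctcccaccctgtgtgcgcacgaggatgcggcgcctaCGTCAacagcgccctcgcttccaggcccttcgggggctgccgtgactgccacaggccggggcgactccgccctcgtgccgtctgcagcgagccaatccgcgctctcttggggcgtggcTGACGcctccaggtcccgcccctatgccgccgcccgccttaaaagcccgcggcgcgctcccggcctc
Rgs16, chr1:153740103-153740352, plus strand: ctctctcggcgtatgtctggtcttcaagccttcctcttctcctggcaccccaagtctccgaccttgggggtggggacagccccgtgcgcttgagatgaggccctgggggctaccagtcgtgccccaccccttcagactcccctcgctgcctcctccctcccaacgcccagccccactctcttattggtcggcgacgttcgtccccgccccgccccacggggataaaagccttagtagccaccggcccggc
The 3 stretches differed in base composition. The Rgs13 bases held 36% G and C, against a median of 52.4% over all 32851 upstream stretches in the table. Rgs2 held 72.4% and Rgs16 held 66.4%. Of 5 motifs searched on both strands, TGACG was the only one found in any of the 3, at 185 and 67 bases before the Rgs2 start, and 17.8% of all upstream stretches hold it. TATAAA (in 12.4% of all stretches), TGANTCA (6.75%), TTCNNNGAA (7.02%) and CAGGTG (17.2%) were not found in these 3 windows. A match is a string of letters and not a measured binding site.

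Libraries held 26299429 to 45548215 expected counts. S1pr4, the targeted gene, had 505 to 6305 expected counts in WT samples and 0 to 40 in S1PR4-/- samples, and the ranges did not overlap. The sorts were checked against defining markers by summed CPM, counts scaled to a common library size. B cell markers summed to 8257 to 12870 CPM in WT GC B cells and 178.5 to 492.3 CPM in WT Tfh cells. GC markers summed to 1503 to 2462 CPM in WT GC B cells and 138 to 191 CPM in WT non-GC B cells. Tfh markers summed to 3114 to 3673 CPM in WT Tfh cells and 226 to 353 CPM in WT non-Tfh cells. Markers of other cells differed between the WT B cell states. Plasma cell markers summed to 4043 to 8884 CPM in GC B and 512.6 to 860.7 CPM in non-GC B cells. Dendritic cell markers summed to 73.55 to 113.6 and 4.258 to 54.93 CPM, and myeloid markers to 43.62 to 216.2 and 7.696 to 53.94 CPM. The sum of 5 stromal markers ran the other way, at 88.82 to 179.8 and 302.3 to 385.1 CPM. Only 2 of these 5 passed the filter on low counts and 1 was called lower in GC B cells. Pdgfrb, another of them, had 0 counts in all WT non-GC B samples. The part of such cells in the RGS differences was not tested. Whether the samples of a group came from separate mice is not stated sample by sample in the labels, so p-values measure the spread between these samples.

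Levels of different genes were compared as CPM per kb of merged exons, averaged over WT samples. Rgs19 was the most abundant member in GC B cells at 51.3 CPM per kb, followed by Rgs13 at 40.7 and Rgs2 at 29.2 CPM per kb. In non-GC B cells Rgs19 led at 66.7 CPM per kb, with Rgs14 at 32.5, and Rgs13 was 0.204. Rgs10 led in Tfh cells at 84.0 ± 10.9 CPM per kb (SD, n = 6), ahead of Rgs19 at 41.5 and Rgs14 at 29.5 CPM per kb. In non-Tfh cells Rgs19 stood at 66.1, Rgs14 at 47.3 and Rgs10 at 44.8 CPM per kb. By this measure the leading member changed with the sorted state in CD4+ T cells but not in B cells. Merged exons join all annotated exons of a gene, so the ranks rest on that length, and the order of genes was not tested. These bulk values do not separate fewer expressing cells from less RNA per cell.

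**Figure D1:**
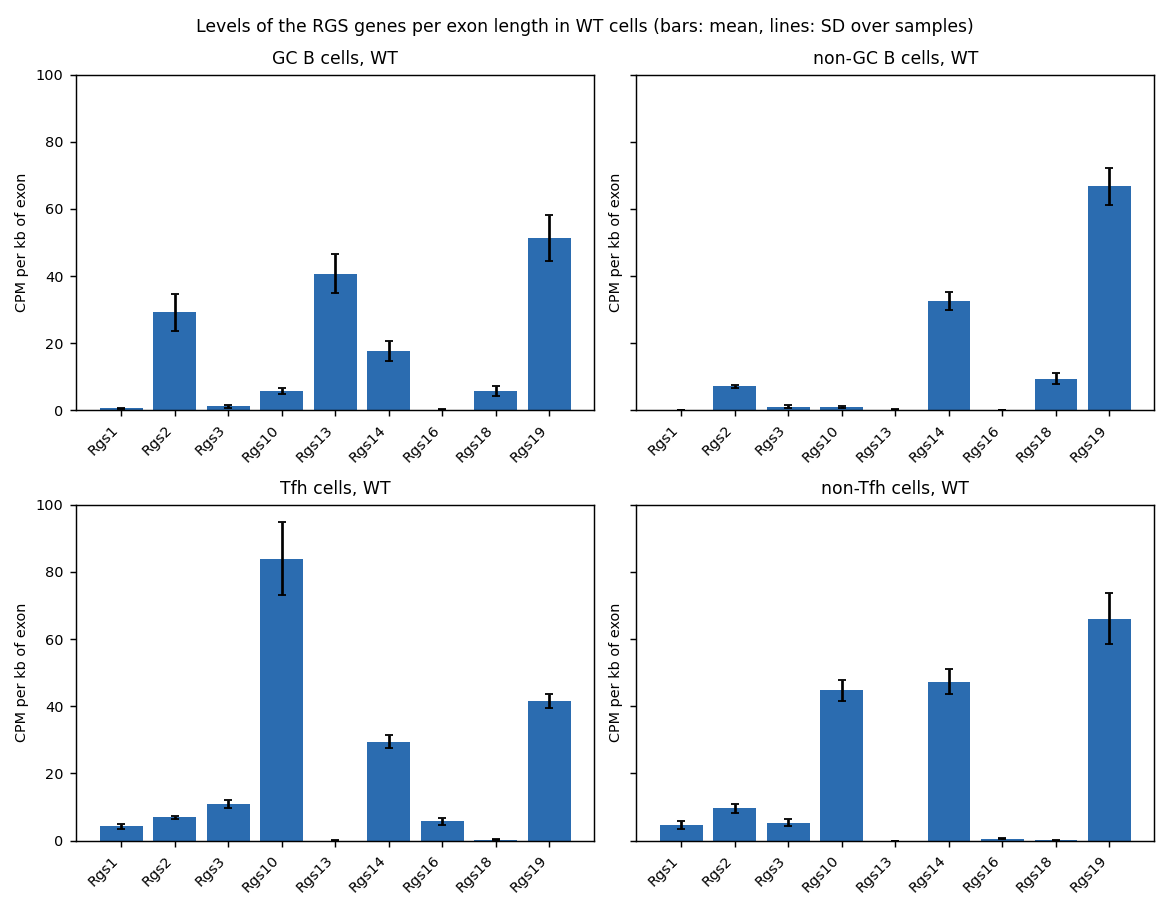
CPM per kb of merged exons (linear axis from 0) of the 9 RGS genes in each of the 4 WT populations, with bars for the mean, error lines for the SD over samples and n as given for each group. Rgs19 leads in GC B cells (51.3 CPM per kb), non-GC B cells (66.7) and non-Tfh cells (66.1), and Rgs10 leads in Tfh cells (84.0).

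GC B cells held more Rgs13, Rgs2, Rgs1 and Rgs10 transcript than non-GC B cells, and less Rgs14 and Rgs18, in WT mice. The rise ran from 4.25-fold for Rgs2 to 209-fold for Rgs13, whose value rested on few non-GC B counts. A member was called changed where edgeR's quasi-likelihood test gave a Benjamini-Hochberg adjusted p under 0.05 over all genes tested and the fold exceeded 1.5. By that rule 4 of the 8 members tested rose and 2 fell. Over all genes tested 47.8% were called, 24.8% higher and 23.1% lower, so calls are common in this comparison. The median log2 change of the 8 members was 1.16, against 0.00212 for all genes. In S1PR4-/- mice 4 of 8 members rose and 1 fell, with 48.2% of all genes called (25.3% higher and 22.9% lower). The WT samples of the 2 states did not overlap for 7 of the 9 members, as for 43.1% of the genes that passed the filter on low counts over all 8 groups.

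Tfh cells held more Rgs16, Rgs3 and Rgs10 transcript than non-Tfh cells and less Rgs14 and Rgs19. Of the 8 members tested in WT mice, 4 rose, the last of them Rgs18 at low counts, and 2 fell, where 43.2% of all genes were called (22.8% higher and 20.4% lower). The median log2 change of the 8 members was 0.387 in WT mice, against 0.000254 for all genes, with 4 positive and 4 negative estimates. Over the 7 members tested in S1PR4-/- mice it was -0.675, against 0.00681 for all genes. In S1PR4-/- mice, 3 of 7 members rose (Rgs3, Rgs10 and Rgs16) and the other 4 fell (Rgs1, Rgs2, Rgs14 and Rgs19), with 43.4% of all genes called (22.3% higher and 21.1% lower). The WT samples of these states did not overlap for 6 of the 9 members and for 42% of the genes.

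**Figure D2:**
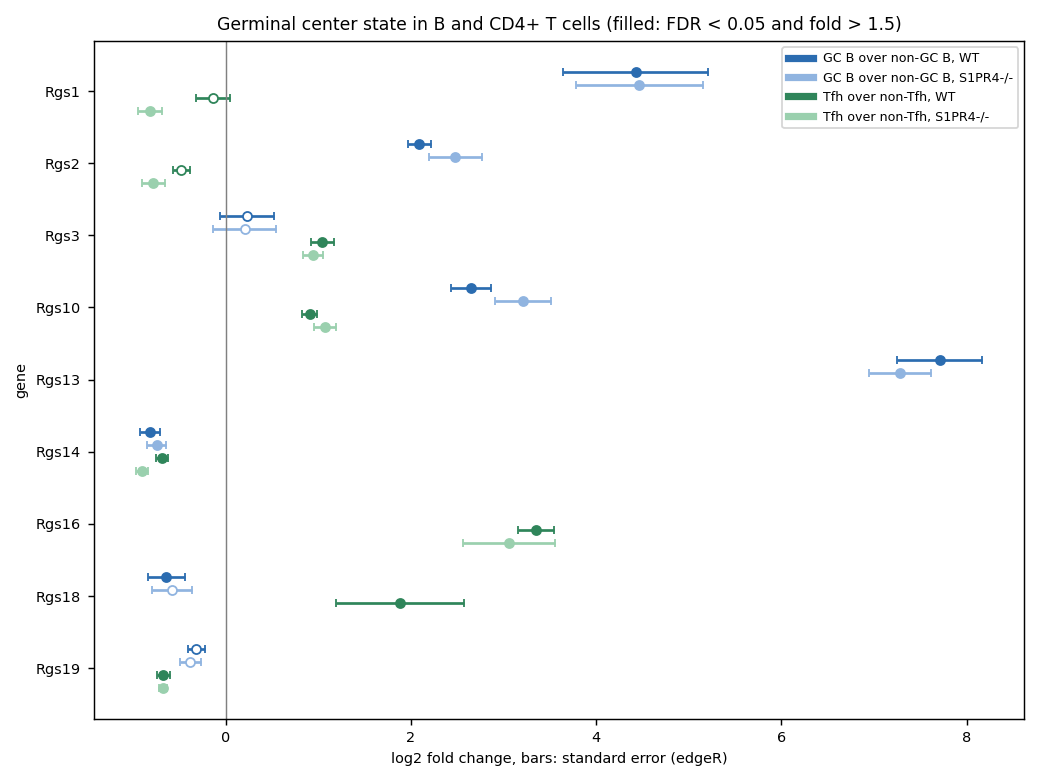
Log2 fold change of each RGS gene between the sorted states, GC B over non-GC B and Tfh over non-Tfh, in WT and in S1PR4-/- mice, with bars of 1 SE. Filled points were called and open points were not. Rgs13 lies farthest to the right in B cells (7.71 in WT), and Rgs16 in CD4+ T cells (3.36 in WT).

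Rgs13 (ENSMUSG00000051079.8, chromosome 1, 144138654 to 144177372, minus strand, mm10) encodes a small RGS protein that limits chemokine receptor signalling in B cells and mast cells. Its level in WT GC B cells ran from 57.3 through a median of 65.4 to 81.7 CPM, and in S1PR4-/- GC B cells from 47.9 through 72.8 to 107 CPM. The 5 WT non-GC B samples had 7, 6, 5, 33 and 2 counts and the 4 S1PR4-/- samples 23, 12, 13 and 16. Every GC B sample therefore stood far above every other sample. In Tfh cells, 2 of the 6 WT samples had 4 and 8 counts, and the remaining Tfh and all non-Tfh samples had 0. WT GC B samples averaged 67.4 ± 9.70 CPM (SD, n = 6) and WT non-GC B samples 0.338 ± 0.420 CPM (SD, n = 5), and the log2 fold change was 7.71 (SE 0.46, edgeR adjusted p = 2.85e-08). Without WT non-GC B replicate 4, the sample with 33 counts, it was 8.81. Between the S1PR4-/- states the change was 7.28 (SE 0.33, edgeR adjusted p = 2.13e-08). WT GC B cells exceeded WT Tfh cells 1250-fold by summed counts, 13179 against 12, with a 95% exact interval from counting error alone of 717 to 2420. WT Tfh replicate 2 held 8 of those 12 counts, and the edgeR log2 fold change of 10.20 was 11.37 without it. That sample also had the highest sum of B cell markers among WT Tfh samples (492.3 CPM), and the part of B cells in these counts was not tested. WT non-GC B cells were at least 23.9-fold above non-Tfh cells, with 53 counts against 0 and a floor of 3 counts over the group.

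Rgs2 (ENSMUSG00000026360.9, chromosome 1, 143999338 to 144004161, minus strand) encodes a regulator known for its action on Gq-class alpha subunits. WT GC B cells had 78.6, 99.8, 100.1, 101.4, 116.4 and 138 CPM. WT non-GC B cells had 26.4, 25.2, 23.3, 28.6 and 26.4 CPM and S1PR4-/- non-GC B cells 15.7, 23.4, 29.7 and 22.2 CPM. The GC B range lay entirely above the non-GC B range in both genotypes. WT GC B samples averaged 106 ± 20.0 CPM (SD, n = 6) and WT non-GC B samples 26.0 ± 1.92 CPM (SD, n = 5), which gave a log2 fold change of 2.09 (SE 0.12, edgeR adjusted p = 2.77e-08). S1PR4-/- GC B cells ran from 67.7 to 162 CPM, and the log2 fold change was 2.48 (SE 0.28, edgeR adjusted p = 1.53e-05). The order was the opposite in CD4+ T cells. WT Tfh cells averaged 25.1 ± 1.44 CPM and WT non-Tfh cells 35 ± 4.99 CPM (SD, n = 6 each). That log2 difference of -0.48 (SE 0.091, edgeR adjusted p = 0.000295) passed the p threshold without reaching 1.5-fold, and the groups did not overlap. The same comparison gave -0.78 (SE 0.12, edgeR adjusted p = 6e-05) in S1PR4-/- mice and was called.

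Rgs1 (ENSMUSG00000026358.13, chromosome 1, 144242296 to 144249242, minus strand) encodes a regulator known to dampen chemokine responses of activated B and T cells. It was higher in CD4+ T cells than in B cells. WT GC B cells had 3.14 to 5.91 CPM with a median of 4.78, and the 5 WT non-GC B samples had 1, 28, 1, 6 and 0 counts. All WT GC B samples, with 90 to 222 counts, stood above all WT non-GC B samples. The log2 fold change between them was 4.43 (SE 0.79, edgeR adjusted p = 0.000278) in WT and 4.46 (SE 0.69, edgeR adjusted p = 0.000155) in S1PR4-/- mice. Without WT non-GC B replicate 2, the sample with 28 counts, the WT value was 6.24. In WT Tfh cells the level ran from 24.8 through 28.4 to 36.1 CPM, overlapping the 14.6 to 38.3 CPM of WT non-Tfh cells (log2 difference -0.14, SE 0.19, edgeR adjusted p = 0.533). S1PR4-/- Tfh cells, at 29.5 ± 5.63 CPM, were below S1PR4-/- non-Tfh cells, at 52.6 ± 8.14 CPM (SD, n = 6 each), with a log2 fold change of -0.82 (SE 0.13, edgeR adjusted p = 5.95e-05). Rgs1 was 6.09-fold lower in WT GC B than in WT Tfh cells (log2 -2.61, edgeR adjusted p = 5.11e-09).

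Rgs10 (ENSMUSG00000030844.11, chromosome 7, 128373621 to 128418758, minus strand) encodes a small regulator that prefers Gi-class alpha subunits. It stood far higher in CD4+ T cells than in B cells. WT Tfh cells had 122 to 175 CPM with a median of 140 CPM, and WT non-Tfh cells had 71.0 to 86.2 CPM with a median of 75.5 CPM. WT GC B cells had 7.52 to 12.0 CPM and the WT non-GC B samples 1.35, 1.34, 1.31, 1.87 and 2.45 CPM. The 4 WT populations did not overlap, and in both lineages the sorted GC-associated state was the higher. The log2 fold change was 2.65 in B cells (SE 0.21, edgeR adjusted p = 3.57e-07) and 0.91 in CD4+ T cells (SE 0.082, edgeR adjusted p = 1.76e-07). The S1PR4-/- values were 3.21 (SE 0.30, edgeR adjusted p = 3.78e-06) and 1.08 (SE 0.12, edgeR adjusted p = 1.78e-06).

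Rgs16 (ENSMUSG00000026475.7, chromosome 1, 153740349 to 153745468, plus strand) encodes a regulator of Gi and Gq signalling that is known to be induced in activated T cells. WT Tfh samples had 15.8, 11.8, 12.2, 16.4, 14.3 and 10.3 CPM, and WT non-Tfh samples 1.89, 1.22, 0.931, 0.953, 1.46 and 1.42 CPM. The highest non-Tfh sample was well below the lowest Tfh sample. The log2 fold change was 3.36 (SE 0.20, edgeR adjusted p = 1.85e-09) in WT mice and 3.06 (SE 0.50, edgeR adjusted p = 7.55e-05) in S1PR4-/- mice. Rgs16 was near the floor in B cells. WT GC B samples had 7, 0, 7, 14, 6 and 28 counts and S1PR4-/- GC B samples 32, 1, 2, 23, 0 and 10, while all 9 non-GC B samples had 0. It did not pass the filter on low counts in either comparison of B cell states. By summed counts it was at least 17-fold higher in GC B than in non-GC B cells of WT mice and at least 14.8-fold higher in S1PR4-/- mice, against a floor of 3 counts over the group. The 236 exonic bases it shares with Gm28513 on the opposite strand were a source of ambiguity if reads were counted without strand, which the sources used here do not state.

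Rgs3 (ENSMUSG00000059810.18, chromosome 4, 62559847 to 62704001, plus strand) encodes a regulator with long and short isoforms. WT Tfh cells, at 105.2 to 136 CPM, stood above WT non-Tfh cells, at 37.7 to 68.9 CPM, with a log2 fold change of 1.04 (SE 0.12, edgeR adjusted p = 3e-06). The change in S1PR4-/- mice was 0.95 (SE 0.10, edgeR adjusted p = 1.93e-06). In B cells the sorted states overlapped. WT GC B samples averaged 13.1 ± 4.83 CPM (SD, n = 6) and WT non-GC B samples 11.7 ± 4.12 CPM (SD, n = 5), a log2 difference of 0.23 (SE 0.29, edgeR adjusted p = 0.492).

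Rgs14 (ENSMUSG00000052087.14, chromosome 13, 55369732 to 55384687, plus strand) encodes a scaffold that also binds Ras-family GTPases. It fell in both GC-associated states. WT GC B cells had 58.4 to 95.6 CPM and WT non-GC B cells 126 to 155 CPM, and the log2 fold change was -0.82 (SE 0.11, edgeR adjusted p = 1.96e-05). WT Tfh cells had 114 to 136 CPM and WT non-Tfh cells 173 to 220 CPM, a log2 fold change of -0.68 (SE 0.066, edgeR adjusted p = 3.75e-07). Neither pair overlapped. The S1PR4-/- changes were -0.74 (SE 0.10, edgeR adjusted p = 7.28e-05) in B cells and -0.90 (SE 0.067, edgeR adjusted p = 3.93e-08) in CD4+ T cells.

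Rgs19 (ENSMUSG00000002458.13, chromosome 2, 181688419 to 181693977, minus strand), also known as GAIP, encodes a regulator of Gi-class subunits. Its group means spanned the smallest ratio of the 9 members, from a mean of 92.5 ± 4.58 CPM in WT Tfh to 154 ± 7.99 CPM in S1PR4-/- non-Tfh cells (SD, n = 6 each). WT Tfh cells had 88.3 to 101 CPM and WT non-Tfh cells 128 to 170 CPM, with a log2 fold change of -0.67 (SE 0.073, edgeR adjusted p = 1.28e-06). The same change in S1PR4-/- mice was -0.67 (SE 0.043, edgeR adjusted p = 8.91e-09). In B cells the difference of -0.31 (SE 0.092, edgeR adjusted p = 0.00888) in WT and -0.38 (SE 0.11, edgeR adjusted p = 0.00934) in S1PR4-/- mice stayed under 1.5-fold, although the groups did not overlap.

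Rgs18 (ENSMUSG00000026357.3, chromosome 1, 144752683 to 144775435, minus strand) encodes a regulator best known from platelets and megakaryocytes. Rgs18 stood higher in both B cell populations than in both CD4+ T cell populations of WT mice. The level was 6.85 to 14.8 CPM in WT GC B and 16.7 to 24.4 CPM in WT non-GC B cells. It was 0.185 to 1.11 CPM in WT Tfh and 0 to 0.371 CPM in WT non-Tfh cells. Of 8 platelet markers, Pf4, Ppbp and Treml1 had 0 counts in all WT GC B samples, and Ppbp and Gp9 in all WT non-GC B samples. The 8 summed to 26.45 to 41 CPM in WT GC B and 10.2 to 25.15 CPM in WT non-GC B cells. The sums were 8.6 to 19.16 CPM in WT Tfh and 100.2 to 146.1 CPM in WT non-Tfh cells. Pf4, Ppbp, Clec1b and Treml1 had 0 counts in all samples of both these groups. Only 1 of the 8 markers passed the filter on low counts between them. The decrease from WT non-GC B to GC B cells was -0.64 on the log2 scale (SE 0.20, edgeR adjusted p = 0.0115). That call was lost when all 8 groups shared a fit (edgeR adjusted p = 0.101) and in 3 of the fits without a single sample, those without WT GC B replicate 2, WT GC B replicate 3 or WT non-GC B replicate 5. In S1PR4-/- mice the log2 difference of -0.57 (SE 0.22, edgeR adjusted p = 0.0357) stayed under 1.5-fold. The higher level of WT Tfh over non-Tfh cells (log2 1.88, SE 0.69, edgeR adjusted p = 0.0248) rested on 141 counts against 36, the samples overlapped, and the call was lost without WT Tfh replicate 4 (log2 1.63). In S1PR4-/- mice 124 counts stood against 11, a 10.9-fold ratio with an exact counting interval of 5.89 to 22.4. B cell markers were also higher in Tfh than in non-Tfh cells, with sums of 178.5 to 492.3 against 64.8 to 105.6 CPM in WT mice. In S1PR4-/- mice the sums were 162.3 to 295.5 against 59.2 to 72.2 CPM. The part of B cells in the Rgs18 counts of CD4+ T cells was not tested.

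**Figure D3:**
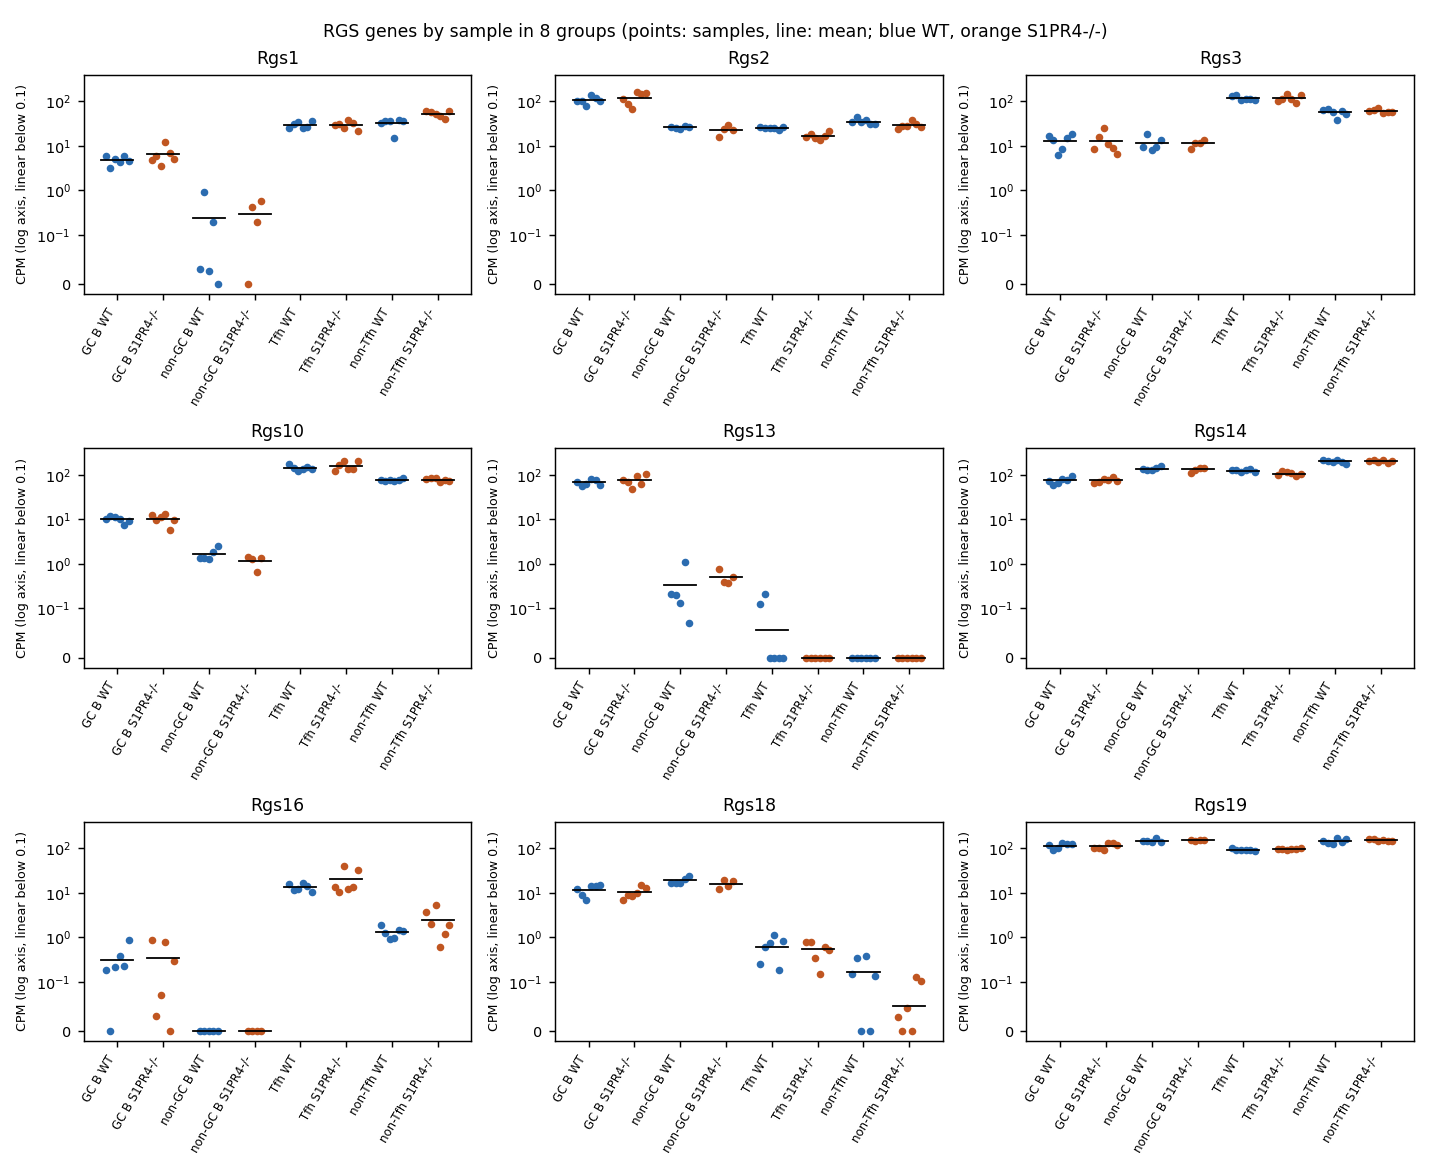
CPM of each RGS gene in the 8 groups, a panel per gene, with a point per sample and a line at the group mean. Rgs13 separates the 12 GC B samples (47.9 to 107 CPM) from the rest, and Rgs16 the 12 Tfh samples (10.3 to 40.8 CPM) from non-Tfh and B cells.

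The 8 groups were ordered by mean log2 CPM for each gene, and the 63 pairs of neighbours were tested with exact two-sided permutations. After Benjamini-Hochberg adjustment over the 63 pairs 17 differed, and the p-values given here carry that adjustment. For Rgs13 both GC B groups came first, then both non-GC B groups, and the step from WT non-GC B to WT Tfh cells was not separated (exact adjusted p = 0.0954). WT and S1PR4-/- samples of a population were neighbours without a detectable difference for Rgs3, Rgs10, Rgs13, Rgs16 and Rgs18, so for these genes the order was an order of populations. It ran Tfh, non-Tfh, GC B and non-GC B for Rgs10 and Rgs16, but the last step, separated for Rgs10 (exact adjusted p = 0.0105), was not for Rgs16 (exact adjusted p = 0.0932). For Rgs3 it ran Tfh, non-Tfh and then B cells, whose 4 groups did not differ from their neighbours. Rgs18 ran from non-GC B and GC B cells, which were not separated (exact adjusted p = 0.289 between neighbours), to Tfh and non-Tfh cells, whose step was not separated either (exact adjusted p = 0.0682). The other genes mixed genotype into the order. Rgs2 was highest in both GC B groups, and among the 6 groups below them no neighbours differed (exact adjusted p = 0.155 to 0.737). Groups farther apart were not compared by permutation. WT and S1PR4-/- Tfh cells, which were not neighbours for Rgs2, were called different by edgeR (adjusted p = 0.0179). Rgs1 began with S1PR4-/- non-Tfh cells, above WT non-Tfh cells (exact adjusted p = 0.0105), which did not differ from Tfh cells. Rgs14 was highest in non-Tfh cells, and S1PR4-/- Tfh cells lay between WT Tfh (exact adjusted p = 0.04) and GC B cells (exact adjusted p = 0.0105). Rgs19 was highest in non-Tfh and non-GC B cells and lower in GC B cells (exact adjusted p = 0.0187), and the further step to Tfh cells was not separated (exact adjusted p = 0.104).

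Between the lineages in WT mice, 8 of 9 members were called between GC B and Tfh cells, 3 higher (Rgs2, Rgs13 and Rgs18) and 5 lower (Rgs1, Rgs3, Rgs10, Rgs14 and Rgs16) in GC B cells, with 44.3% of all genes called (20.1% higher and 24.2% lower). The largest decreases were those of Rgs16 (log2 -5.39, SE 0.46; -5.99 without WT GC B replicate 6), Rgs10 (-3.84, SE 0.12) and Rgs3 (-3.17, SE 0.23). Between non-GC B and non-Tfh cells 5 of 8 members were called, where 38.9% of all genes were (19.7% higher and 19.1% lower). Rgs18 was higher in non-GC B cells (log2 6.87, SE 0.50), and Rgs1 (-7.07, SE 0.62; -8.90 without WT non-GC B replicate 2), Rgs10 (-5.47, SE 0.16), Rgs3 (-2.24, SE 0.21) and Rgs16 were lower. Rgs16 was at least 70.7-fold higher in non-Tfh cells, since non-GC B cells had no counts.

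The change between states itself differed between B and CD4+ T cells for 5 of the 9 members by the interaction term in edgeR, with 41.7% of all genes called (20.3% positive and 21.4% negative). On the log2 scale the B cell change exceeded the T cell change by 4.51 for Rgs1 (SE 0.63, edgeR adjusted p = 4.11e-06; 6.335 without WT non-GC B replicate 2), by 2.503 for Rgs2 (SE 0.15, edgeR adjusted p = 2.03e-11) and by 1.68 for Rgs10 (SE 0.19, edgeR adjusted p = 1.76e-07). The difference was negative for Rgs18 (-2.59, SE 0.65, edgeR adjusted p = 0.00274) and for Rgs3 (-0.87, SE 0.32, edgeR adjusted p = 0.0303). The Rgs3 call was lost without WT non-GC B replicate 2 (-0.66) or 5 (-0.82). Rgs14 (-0.20, SE 0.13, edgeR adjusted p = 0.24) and Rgs19 (0.29, SE 0.12, edgeR adjusted p = 0.0561) were not called. DESeq2 called Rgs19 (adjusted p = 0.0402), as did edgeR with DESeq2 size factors (adjusted p = 0.0454) and with all 8 groups in a fit (adjusted p = 0.036). For Rgs13 and Rgs16 a group had no counts, so the size of the term depends on the tool. Rgs13 was not called by edgeR (3.64, SE 19.3) but was by DESeq2 (4.22, adjusted p = 0.0107) and limma (7.01, adjusted p = 1.82e-05). Rgs16 was not called by edgeR (3.11, SE 1.31, adjusted p = 0.0642) or by limma but was by DESeq2 (2.42, adjusted p = 0.0457).

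Loss of S1PR4 was accompanied by a lower Rgs2 level in Tfh cells, and no other member was called in any of the 4 populations. In Tfh cells 1 of 8 members was called, lower, where 0.496% of all genes were called and 0.4% were called lower. WT Tfh samples had 27.0, 24.7, 25.3, 25.3, 22.7 and 26.0 CPM of Rgs2, and S1PR4-/- Tfh samples had 16.0, 18.0, 15.2, 13.5, 16.8 and 21 CPM. All 6 S1PR4-/- values lay below all 6 WT values, as was true, in either direction, of 1.6% of the 16200 genes that passed the filter on low counts in all groups together. The mean fell from 25.1 ± 1.44 to 16.7 ± 2.57 CPM (SD, n = 6 each), a log2 change of -0.59 (SE 0.097, edgeR adjusted p = 0.0179). At 1.51-fold the change was only just past the fold threshold. The same 12 samples differed in markers of other cells. The sum of 12 B cell markers was 178.5 to 492.3 CPM in WT and 162.3 to 295.5 CPM in S1PR4-/- Tfh cells, 11 of the 12 had a lower mean in S1PR4-/- cells, and none was at 0 throughout a group. Of 8 plasma cell markers, 7 had a lower mean in S1PR4-/- Tfh cells. With the mean log2 CPM of both lists as a covariate, the B and plasma cell marker score, the log2 change of Rgs2 was -0.63. It was not called (edgeR adjusted p = 0.157), and the part of those cells in the difference was not tested beyond that fit. By Xist and Ddx3y, 5 of the 6 WT Tfh samples and 2 of the 6 S1PR4-/- samples were female, and with sex as a covariate the change was -0.67 (edgeR adjusted p = 0.0136). Leaving out single samples gave -0.54 to -0.67, and the call was lost without S1PR4-/- replicate 1 (-0.58), 3 (-0.57) or 4 (-0.54) or without WT replicate 1 (-0.57).

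**Figure D4:**
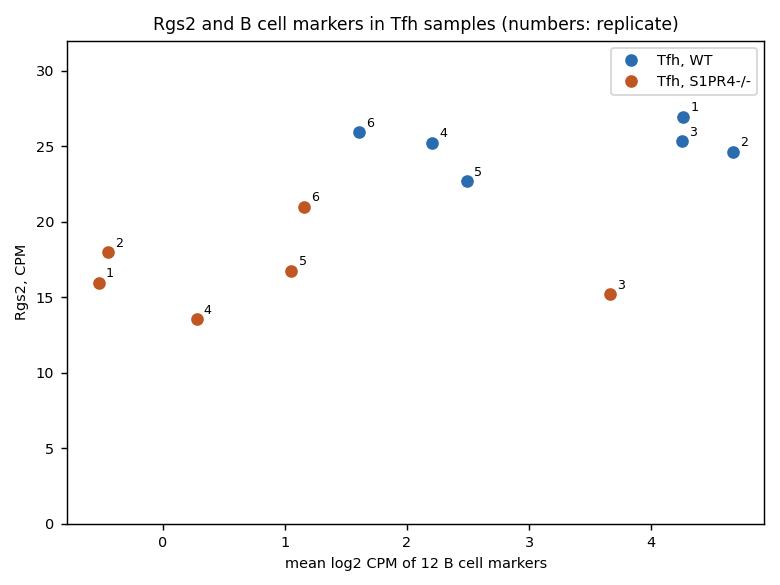
Rgs2 in CPM (vertical axis, from 0) against the mean log2 CPM of 12 B cell markers (horizontal axis) in the 12 Tfh samples, a point per sample and a colour per genotype. The WT samples lie at 22.7 to 27.0 CPM and the S1PR4-/- samples at 13.5 to 21 CPM, and the WT samples also lie mostly farther right.

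The lower Rgs2 level was not called in the other populations. In non-Tfh cells WT samples had 34.0, 43.5, 33.4, 38.1, 30.3 and 30.9 CPM and S1PR4-/- samples 24.2, 27.5, 28.4, 37.5, 30.3 and 26.0 CPM. The groups overlapped, and the log2 difference was -0.27 (SE 0.11, edgeR adjusted p = 0.391). The difference between the Tfh and the non-Tfh effect was -0.32 (SE 0.15, edgeR adjusted p = 0.534), so an effect confined to Tfh cells was not shown. In GC B cells the difference was 0.20 (SE 0.20, edgeR adjusted p = 0.985) and in non-GC B cells -0.19 (SE 0.16, edgeR adjusted p = 0.985).

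In non-Tfh cells no member of the 7 tested was called by edgeR, where 0.114% of all genes were, although 3 had an unadjusted p under 0.05 (Rgs1, Rgs2 and Rgs16). limma called 0 and DESeq2 called 1, Rgs1. WT non-Tfh samples had 32.9, 36.7, 35.5, 14.6, 38.3 and 36.3 CPM of Rgs1 and S1PR4-/- samples 60.3, 56.8, 53.0, 46.2, 39.8 and 59.6 CPM. Each S1PR4-/- sample exceeded each WT sample, as in 1.01% of the genes compared in either direction. The log2 difference was 0.70 (SE 0.18, edgeR adjusted p = 0.136), and DESeq2 gave an adjusted p of 0.00956. Markers of regulatory T cells ran the same way in these samples, with sums of 383 to 748 CPM in WT and 617 to 1197 CPM in S1PR4-/- cells and a higher mean for 6 of 6, none of them called and none at 0 throughout a group. The part of regulatory T cells in the Rgs1 difference was not tested. B cell markers ran the other way, with a lower mean in S1PR4-/- cells for 11 of 12 and sums of 64.8 to 105.6 CPM in WT and 59.2 to 72.2 CPM in S1PR4-/- samples. With the B and plasma cell marker score as a covariate the Rgs1 difference was 0.55 (edgeR adjusted p = 0.78). With sex it was 0.53 (edgeR adjusted p = 0.697). In Tfh cells Rgs1 did not differ detectably (log2 -0.0018, SE 0.13, edgeR adjusted p = 0.996), and the difference between both effects was -0.70 (SE 0.24, edgeR adjusted p = 0.364).

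Rgs16 varied more among S1PR4-/- than among WT CD4+ T cells. S1PR4-/- Tfh samples had 13.4, 10.3, 40.8, 12.5, 13.8 and 32.5 CPM, so 4 lay within the WT range of 10.3 to 16.4 CPM and replicates 3 and 6 lay above it. The log2 difference of 0.60 (SE 0.31, edgeR adjusted p = 0.317) was not called. With the B and plasma cell marker score as a covariate it was 1.45 (SE 0.33, edgeR adjusted p = 0.115), also not called. Those replicates, singled out after the values were seen, also had the highest Rgs10 (200 and 200 CPM) and Rgs3 (142 and 136 CPM) and the lowest Rgs1 (24.7 and 22.0 CPM) of the 6 S1PR4-/- Tfh samples. Their sums of Tfh markers were the highest of the 6, at 4093 and 3645 CPM, and their sums of regulatory T cell markers the lowest, at 678 and 600 CPM. Replicate 3 also had the highest mean of B cell markers (3.66 log2 CPM, against -0.52 to 1.16 in the other 5), and replicate 6 the highest sum of myeloid markers (439.6 CPM, against 25.1 to 78.1 CPM). What part these play in the Rgs16 levels was not tested. In non-Tfh cells Rgs16 ran from 0.615 to 5.40 CPM in S1PR4-/- and from 0.931 to 1.89 CPM in WT samples (log2 difference 0.91, SE 0.41, edgeR adjusted p = 0.425). That difference was 0.16 with sex and 0.32 with the B and plasma cell marker score as a covariate.

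Rgs14 was lower in S1PR4-/- Tfh cells without being called, at 107 ± 10.5 CPM against 125 ± 8.33 CPM in WT (SD, n = 6 each; log2 -0.23, SE 0.070, edgeR adjusted p = 0.0957), and the samples overlapped. For Rgs3, Rgs10, Rgs18 and Rgs19 the differences in Tfh cells were -0.04 (SE 0.11), 0.16 (SE 0.13), -0.20 (SE 0.46) and 0.04 (SE 0.047) on the log2 scale, with edgeR adjusted p of 0.517 to 0.894. Rgs13, with 12 counts in WT and 0 in S1PR4-/- Tfh cells, and Rgs18 in non-Tfh cells, with 36 against 11 counts, did not pass the filter on low counts.

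In B cells no member was called between genotypes by edgeR, limma or DESeq2. In GC B cells 0 of 8 members were called, where 0.0612% of all genes were, and 0 had an unadjusted p under 0.05. The estimates ran from -0.18 (Rgs18, SE 0.21) to 0.41 (Rgs1, SE 0.26), and that of Rgs13 was 0.17 (SE 0.16, edgeR adjusted p = 0.985). Plasma cell markers summed to 2060 to 17940 CPM in S1PR4-/- and 4043 to 8884 CPM in WT GC B samples, with 0 of 8 called. The part of this spread in the estimates was not tested. In non-GC B cells 0 of 7 members were called, where 0.0537% of all genes were, and again 0 had an unadjusted p under 0.05. The least precise was Rgs13 at 0.59 (SE 0.76), since those libraries held 2 to 33 counts of it. In the interaction of genotype and state, 0 of 9 members were called in B cells (0% of all genes) and 0 of 8 in CD4+ T cells (0.0139% of all genes), by edgeR, limma and DESeq2 alike, with 0 and 3 members at an unadjusted p under 0.05.

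**Figure D5:**
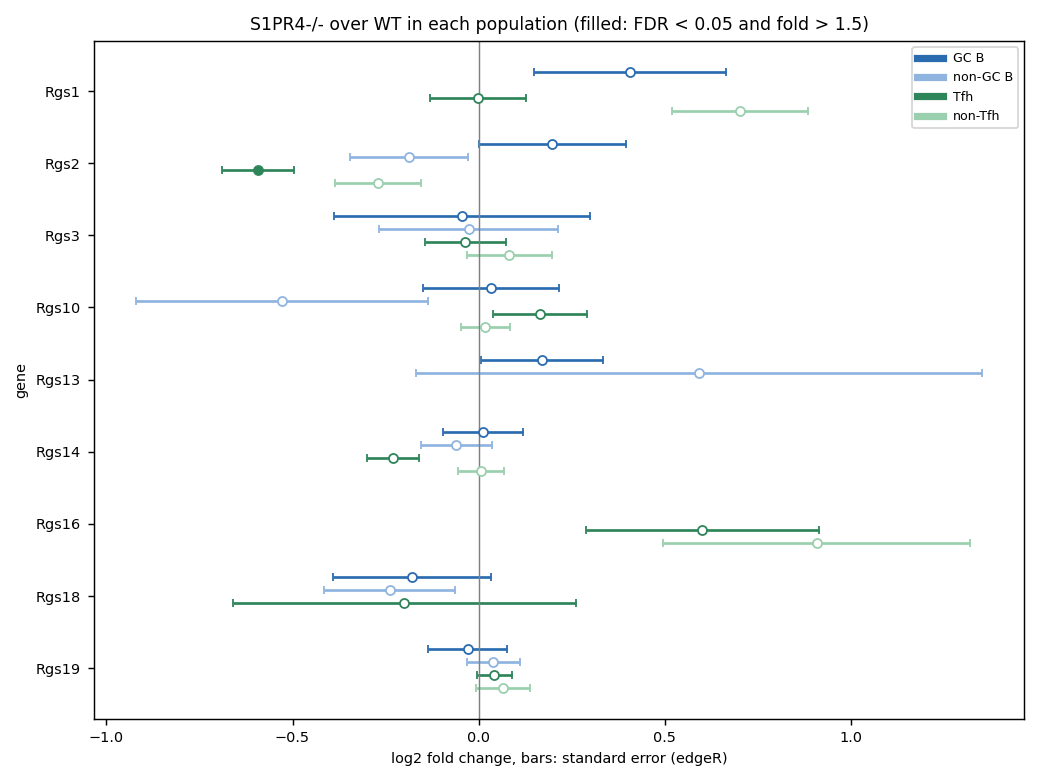
Log2 fold change of each RGS gene in S1PR4-/- over WT samples in the 4 populations, with bars of 1 SE. The filled point is the single call, Rgs2 in Tfh cells (-0.59), and the open points were not called.

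Other parts of the same pathway were read from lists of genes, beside calls of 24.8% higher and 23.1% lower over all genes between the WT B cell states and of 22.8% and 20.4% between WT Tfh and non-Tfh cells. Of 15 further genes with an RGS domain, 4 were tested between the WT B cell states and 1 rose, Rgs9 (3.78 against 0.116 CPM). Between WT Tfh and non-Tfh cells 6 were tested, 3 rose (Rgs8, Rgs9 and Axin2) and 1 fell, Rgs11 (4.38 against 31.3 CPM, log2 -2.84, SE 0.22). Rgs8, which lies on the same chromosome as Rgs16, averaged 1.64 CPM in WT Tfh cells and had 0 counts in WT non-Tfh cells. Among 28 G protein subunits, 11 of 20 tested rose and 3 fell in WT GC B cells, and 8 of 21 rose and 2 fell in WT Tfh cells. The beta subunit Gnb4 rose from 2.37 to 37.4 CPM in GC B cells and the gamma subunit Gng2 from 19.2 to 110 CPM in Tfh cells.

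Receptor kinases and arrestins end signalling at the receptor, a step upstream of RGS proteins. Of 7 tested in WT B cells 1 rose and 2 fell, and of 6 tested in WT CD4+ T cells 0 rose and 2 fell, shares near the 47.8% and 43.2% of all genes called. Arrb1, the gene of beta-arrestin-1, fell in both, from 23.8 to 2.97 CPM in GC B and from 33.6 to 17.8 CPM in Tfh cells. Chemoattractant receptors, whose signals RGS proteins shorten, were read in the same way, with 6 of 17 higher and 7 lower in WT GC B cells and 14 of 22 higher and 4 lower in WT Tfh cells, beside the same all-gene shares. S1pr2 rose from 2.70 to 470 CPM in GC B cells and Gpr183 fell from 376 to 73.0 CPM. Cxcr5, which was used in the sort, stood at 945 CPM in Tfh and 16.1 CPM in non-Tfh cells, and Ccr7 at 127 and 1443 CPM. Between genotypes a single gene of these 4 lists was called, Gna15, an alpha subunit gene 2.2 kb from S1pr4, which fell in GC B (log2 -1.35), non-GC B (-4.10) and Tfh cells (-1.68) and was not called in non-Tfh cells (-0.83, edgeR adjusted p = 0.342).

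For each member the 3 genes with the most similar profile were taken by Pearson's r of log2 CPM over the 45 samples, among 12025 candidates. The samples share lineage, state and day, so these values describe shared profiles over groups. Rgs10 had the closest, Gsr (r = 0.988), Gstp3 (0.986) and Crmp1 (0.984), and Rgs13 was nearest to Mtmr14 (0.985), Gm12678 (0.978) and Gh (0.975). Rgs18 was nearest to Kmo (0.976), H2-Ab1 (0.975) and H2-Aa (0.973), and Rgs3 to Cxcr6 (0.975), Rora (0.973) and Ccdc141 (0.969). Rgs14 followed Pnrc1 (0.971), Ldb1 (0.97) and Vps37b (0.969), and Rgs1 followed Sema4f (0.961), Gtf2ird1 (0.958) and Lcp2 (0.955). Rgs16 paired with Egln3 (0.955), S100a4 (0.95) and Ttc39c (0.947), Rgs19 with Gps2 (0.946), Trp53rka (0.942) and Mrm1 (0.935), and Rgs2, whose profile was the least closely matched along with that of Rgs19, with Basp1 (0.938), Ackr4 (0.932) and Parp8 (0.931). By Spearman's rank correlation 8 of these 27 genes were again among the nearest 3.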

How the data were processed

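RNA from 45 sorted samples was captured with oligo-dT beads and sequenced from a stranded kit. The authors deposited a table of RSEM expected counts for 55450 genes, and the submitters' processing notes name cutadapt 2.10, STAR 2.5.3, Picard, RSEM 1.3.0, DESeq2 and mm10. Whether counting used strand is not given in the sources used here. Of the deposited expected counts, 8.83% were not whole, and these were rounded. Depth was 26299429 to 45548215 expected counts per sample, and intervals and floors (3 counts over a group) cover counting error only. Samples were grouped by the genotype and cell type labels. The members and the other gene lists were chosen with earlier results of these data known.

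Each comparison was fitted alone over all genes kept by filterByExpr, with TMM scaling and edgeR 4.0.16's quasi-likelihood test under R 4.3.3, and Benjamini-Hochberg adjustment over all genes tested. A gene was called at an adjusted p under 0.05 and a fold over 1.5, and an interaction at an adjusted p under 0.05. Per-sample CPM used a single TMM scaling of all 45 samples, and log2 CPM a prior count of 2. Exon lengths and coordinates came from GENCODE M21 on mm10, and upstream sequences from RefSeq on GRCm38.p6. The paper names a later GENCODE release with mm10, so CPM per kb rests on exon lengths from a release it does not name. Neighbours in the order of groups were compared by exact permutation tests, adjusted over 63 pairs. The genes named were the 9 members, the genes of the other lists with the lowest p in each direction, and the 3 nearest profiles per member. Figures were drawn with matplotlib 3.10.9 under Python 3.11.15. Alternatives were DESeq2 1.42.0, limma 3.58.1 with voom, DESeq2 size factors, no filter, the adjusted p alone, all 8 groups in a fit, a replicate block, sex or a marker score as a covariate, and each sample left out in turn. The marker score was the mean log2 CPM of B cell and plasma cell markers for CD4+ T cells, and of T cell markers for B cells. Scripts were tested on simulated counts.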

Additional observations from a re-analysis of the deposited data

Results flagged for a closer look

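Rgs1 stood at 14.61 CPM in WT non-Tfh replicate 4, where the other 5 samples had 32.9 to 38.3 CPM, and this sample lay apart by Dixon's test. Without it the log2 difference of Rgs1 between S1PR4-/- and WT non-Tfh cells was 0.5505 in place of 0.70, and it passed the threshold on the adjusted p but stayed under 1.5-fold. Rgs19 stood at 169.3 CPM in WT non-GC B replicate 4, above 140 to 147 CPM in the other 4 samples. Dixon's test was run on 56 groups of values, those averaging 1 CPM or more, and chance flags about 1 in 20 groups, so 2 are no more than chance gives.

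The change from the non-GC to the GC-associated state differed between B and CD4+ T cells of WT mice, by the interaction term in edgeR, for 5 members. On the log2 scale the B cell change minus the T cell change was 4.512 for Rgs1, 2.503 for Rgs2, -0.8734 for Rgs3, 1.684 for Rgs10 and -2.585 for Rgs18. B cells were collected on day 9 and T cells on day 6, so lineage and day cannot be told apart. The Rgs3 value was no longer called without WT non-GC B replicate 2 (-0.66) or replicate 5 (-0.82).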

How the results depend on the processing

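Of 101 recomputed counts of called members and of separated neighbours in the group orders, 98 stayed within 1.5 times the reported value. The causes of the exceptions were not tested. In Tfh cells between genotypes the count was 0 in place of 1 with the B and plasma cell marker score as a covariate. In non-Tfh cells it was 1 in place of 0 by DESeq2, and for lineage by state it was 8 in place of 5 by DESeq2. Besides these, by Spearman's rho 8 of the 27 nearest genes were kept. Leaving out single samples gave 0 to 1 members for Tfh cells between genotypes. No called member changed direction. A further 13 member-by-comparison values did not pass the filter on low counts and have no reported fit to compare with.

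Differences between genotypes that were not called changed sign as follows. In GC B cells Rgs10 was -0.01654 by limma and -0.02703 with the marker score, and in non-GC B cells Rgs3 was 0.04492 by limma and 0.08511 with the replicate block. In Tfh cells Rgs1 was 0.003321 with DESeq2 size factors, 0.002921 by DESeq2, 0.01095 by limma, 0.004714 with all 8 groups in a fit and 0.05245 with sex, and Rgs3 was 0.2786 with the marker score. In non-Tfh cells Rgs10 was -0.02265 with sex, and with the marker score Rgs14 was -0.03065 and Rgs3 was -0.126. For genotype by state in B cells, limma gave -0.6605 for Rgs1 and -0.4925 for Rgs16, and the replicate block gave -0.06806 for Rgs18, -0.5976 for Rgs1 and 0.3004 for Rgs3.

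Leaving out single samples turned the sign of these, given as lowest and highest value. For GC B over non-GC B in S1PR4-/- mice, Rgs3 ran from -0.1087 to 0.3384. Between genotypes in GC B cells, Rgs19 ran from -0.08919 to 0.01298, Rgs10 from -0.04465 to 0.152, Rgs14 from -0.04749 to 0.09427 and Rgs3 from -0.3733 to 0.08962. In non-GC B cells Rgs14 ran from -0.114 to 0.02137 and Rgs3 from -0.134 to 0.1805. In Tfh cells Rgs18 ran from -0.3885 to 0.05658, Rgs1 from -0.08532 to 0.06793 and Rgs3 from -0.1049 to 0.01729. In non-Tfh cells Rgs10 ran from -0.00751 to 0.05341, Rgs14 from -0.03361 to 0.03645 and Rgs3 from -0.01404 to 0.1391. For genotype by state in B cells Rgs18 ran from -0.04093 to 0.1728, Rgs1 from -1.776 to 0.5487 and Rgs3 from -0.2324 to 0.08018. For the interactions that involve B cells only non-GC B samples were left out in turn, and for genotype by state in CD4+ T cells no sample was left out.

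With the replicate number as a block, 6 members were called between the B cell states of either genotype (5 without the block in S1PR4-/- mice, where Rgs18 was added), 6 and 7 between Tfh and non-Tfh cells of WT and S1PR4-/- mice, 0, 0, 1 and 0 between genotypes in GC B, non-GC B, Tfh and non-Tfh cells, 8 and 5 between lineages, 0 for both interactions with genotype and 7 for lineage by state, where Rgs14 (-0.28, edgeR adjusted p = 0.0159) and Rgs16 (2.44, edgeR adjusted p = 0.0366) were added. Over all genes the block moved the count for genotype by state in CD4+ T cells from 2 to 41 and that between genotypes in Tfh cells from 67 to 46. Without the block, the counts over all genes by edgeR and DESeq2 were 8 and 14 between genotypes in GC B cells, 7 and 16 in non-GC B, 67 and 184 in Tfh and 15 and 56 in non-Tfh cells, and 0 and 6 (B cells) and 2 and 76 (CD4+ T cells) for genotype by state. With all 8 groups in a fit these were 25 in non-GC B cells, 153 in Tfh cells and 5 for genotype by state in B cells. In Tfh and non-Tfh cells they were 157 and 7 with sex, 13 and 7 with the marker score and 190 and 31 by the adjusted p alone. Same-numbered samples deviated together only weakly, with correlations of 0.0454 to 0.205 (WT) and 0.0866 to 0.163 (S1PR4-/-) in CD4+ T cells and -0.00105 to 0.103 and -0.0452 to 0.0177 in B cells, and every sample correlated best with its own number in a single pair of groups, S1PR4-/- Tfh and non-Tfh cells. All same-numbered Tfh and non-Tfh samples matched in sex, 6 of 6 pairs in each genotype, and 4 of 6 WT Tfh samples correlated best with their own number. In B cells 4 of 5 WT and 1 of 4 S1PR4-/- pairs matched in sex, and 4 of 5 and 0 of 4 correlated best. Whether same-numbered samples came from the same mouse is not stated in the labels, so the CD4+ T cell samples may be paired. The reported fits left all samples unpaired, and the replicate block stands beside them. Between genotypes and between lineages that block joined samples of different mice. It did so too in B cells for pairs that differed in sex, so the Rgs18 call added there does not rest on a known pairing. Depth limits Rgs13 outside GC B cells, Rgs16 in B cells, Rgs1 in non-GC B cells and Rgs18 in CD4+ T cells, where single libraries hold 0 to 49 counts.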
